A study of Mus musculus with 23 samples.

Results

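The 6 genes described here encode the subunits of the glycine receptor and the 2 glycine transporters of the plasma membrane: Glra1, Glra2, Glra3 and Glrb for the receptor, and Slc6a5 and Slc6a9 for the transporters. They were taken by name, and all 6 are listed in both tables of the series, among 20016 gene names for cortex and 19890 for spinal cord. Expression was measured by RNA sequencing of frozen cortex and lumbar spinal cord from 12 C57BL/6 mice aged 6 months. F112 mice carried a human C9orf72 bacterial artificial chromosome (BAC) with the repeat expansion (labelled F112exp), F08 mice carried one without it, and NTg mice were nontransgenic. Spinal cord libraries came from 4 mice of each genotype, and cortex libraries from 3 F112, 4 F08 and 4 NTg mice. The 2 tissues share mouse numbers, except that no cortex library stands for F112 mouse 6325. The labels give 1 name for each transgenic line, so the expansion and the line cannot be told apart. They do not give sex. The design compared the genotypes within each tissue.

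Glycine is a fast inhibitory transmitter of the spinal cord and brainstem. It opens a chloride channel built from alpha subunits, which carry most of the binding site, and the beta subunit, which anchors the receptor to the scaffold protein gephyrin. GLYT2, the product of Slc6a5, refills glycinergic nerve endings with glycine, while GLYT1, the product of Slc6a9, sits mainly on astrocytes and clears glycine from the space around synapses. In the adult cord the synaptic receptor is mostly Glra1 with Glrb, whereas Glra2 is the main alpha subunit of the fetal nervous system.

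In the mouse assembly GRCm38.p6 (RefSeq), Glra1 lies on chromosome 11 (55514239 to 55608198), Glra2 on X (165129017 to 165327867), Glra3 on chromosome 8 (55940418 to 56130070) and Glrb on chromosome 3 (80843598 to 80913660). Slc6a5 lies on chromosome 7 (49906984 to 49963864) and Slc6a9 on chromosome 4 (117835258 to 117869305). RefSeq start-site windows of 300 bases (250 before the start and 50 after it) matched 5 of the 6 genes. Windows of 3 genes are printed because their genes differ most clearly in tissue pattern: Slc6a5 was near 0 in cortex, Glrb was high in both tissues, and Glra2 was low in both. CG dinucleotides are in capitals, and all are written 5′ to 3′ on the strand of the gene.
Slc6a5, chr7:49910049-49910348, plus strand: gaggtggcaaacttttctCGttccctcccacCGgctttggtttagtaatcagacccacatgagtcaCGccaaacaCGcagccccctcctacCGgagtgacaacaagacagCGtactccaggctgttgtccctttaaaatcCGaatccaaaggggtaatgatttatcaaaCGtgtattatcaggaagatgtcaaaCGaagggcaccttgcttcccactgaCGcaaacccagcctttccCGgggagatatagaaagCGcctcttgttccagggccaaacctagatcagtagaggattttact
Glrb, chr3:80913611-80913910, minus strand: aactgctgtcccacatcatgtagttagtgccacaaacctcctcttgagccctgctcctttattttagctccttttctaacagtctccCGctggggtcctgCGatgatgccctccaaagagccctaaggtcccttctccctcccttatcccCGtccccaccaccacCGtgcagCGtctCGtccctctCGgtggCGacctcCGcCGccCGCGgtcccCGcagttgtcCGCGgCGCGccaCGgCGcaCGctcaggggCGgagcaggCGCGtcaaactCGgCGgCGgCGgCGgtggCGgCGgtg
Glra2, chrX:165327344-165327643, minus strand: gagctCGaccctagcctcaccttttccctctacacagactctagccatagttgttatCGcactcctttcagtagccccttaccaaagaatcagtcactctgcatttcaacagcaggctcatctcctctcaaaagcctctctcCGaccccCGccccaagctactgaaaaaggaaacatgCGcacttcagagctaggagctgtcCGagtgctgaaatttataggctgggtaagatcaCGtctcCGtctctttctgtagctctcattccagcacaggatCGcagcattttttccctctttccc
The Glrb window held 30 CG dinucleotides, a count that 11.7% of 32851 such windows reached or passed, with 65.7% G and C. The printed Slc6a5 window held 12, reached by 39.6% of windows, while a second start site of this gene had a window with 7, reached by 52.1%. The Glra2 window held 9, reached by 45.8%. The median over all windows was 7. These counts describe the letters of the windows; no file of the series bears on methylation or binding there.

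Values are RPKM, which divide reads by gene length and by library alignments. Comparisons of levels between genes depend on the length used for each gene, and the fit of those lengths was not tested. Alignments were 28479400 to 38811100 per library in spinal cord and 9398450 to 14715900 in cortex. In spinal cord they were 34097800 to 38811100 in F112, 31459800 to 37367600 in F08 and 28479400 to 34100800 in NTg mice. Depth and genotype were thus nearly confounded there for F112 against NTg. Homeobox genes of the hindbrain and cord summed to 117 to 144 RPKM in spinal cord libraries and 0 to 1.00 RPKM in cortex libraries, and markers of cortical glutamatergic neurons to 8.31 to 10.6 and 215 to 413 RPKM, which matches the tissue labels. Cortex libraries varied in markers of neighbouring tissue: the summed level ran from 90.8 to 833 RPKM for a striatum list, from 13.04 to 125 RPKM for a thalamus and hypothalamus list and from 3.58 to 758 RPKM for a choroid plexus list. In spinal cord libraries these lists summed to 113 to 147, 185 to 203 and 1.34 to 2.25 RPKM. The striatum list and the thalamus and hypothalamus list are therefore not specific to the regions they are named for. In spinal cord, the library of F112 mouse 6325 had 459 RPKM of Rn45s, the ribosomal RNA precursor, against 31.5 to 82.6 RPKM in the other 11. No libraries of a tissue held identical values.

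In spinal cord, 4 of the 6 genes were abundant and 2 were scarce. Glrb averaged 93.6 RPKM over the 12 libraries, above 97.4% of the listed genes. Slc6a9 averaged 80.2 RPKM (above 96.9% of genes), Slc6a5 69.3 RPKM (96.3%) and Glra1 60.8 RPKM (95.6%). Glra3 at 3.62 RPKM and Glra2 at 3.20 RPKM lay near the middle of the list, above 51.0% and 49.2% of genes. Glrb stood above Slc6a9 in every library, while the ranges of Slc6a9 and Slc6a5 overlapped, as did those of Slc6a5 and Glra1 and those of Glra3 and Glra2.

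Glra1, the main adult alpha subunit, had 52.5, 45.8, 55.5 and 73.5 RPKM in the spinal cord of F112 mice 6316, 6317, 6324 and 6325. F08 mice had 63.7, 63.7, 67.8 and 55.6 RPKM, and NTg mice had 60.8, 62.3, 64.7 and 63.3 RPKM. The F112 group held both the 3 lowest values and the highest one, that of mouse 6325, and so it overlapped both other groups. Glrb, the beta subunit, had 95.3, 92.3, 103 and 91.3 RPKM in F112 mice, 91.8, 91.4, 91.5 and 94.8 RPKM in F08 mice and 91.1, 93.0, 96.7 and 90.4 RPKM in NTg mice. It varied least of the 6 genes, and the 3 groups overlapped.

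The minor alpha subunits also overlapped between the 3 genotypes. Glra2 had 3.32, 3.67, 3.36 and 3.12 RPKM in F112 cords, 2.97, 2.83, 2.93 and 3.38 RPKM in F08 cords and 3.30, 3.14, 2.96 and 3.45 RPKM in NTg cords. Glra3, an alpha subunit known from dorsal horn pain circuits, had 3.50, 3.12, 3.67 and 3.36 RPKM in F112 cords, 4.32, 3.56, 3.62 and 3.44 RPKM in F08 cords and 4.41, 2.87, 3.60 and 3.90 RPKM in NTg cords. For both genes all 3 groups overlapped.

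The neuronal transporter gene Slc6a5 had 63.4, 60.6, 63.0 and 73.0 RPKM in the spinal cord of F112 mice 6316, 6317, 6324 and 6325. It had 73.0, 72.9, 72.9 and 66.6 RPKM in F08 mice and 71.5, 71.7, 75.1 and 67.8 RPKM in NTg mice. As for Glra1, the 3 lowest values belonged to F112 mice other than 6325, whose value lay among those of the other genotypes. The glial transporter gene Slc6a9 had 78.0, 81.3, 71.1 and 76.2 RPKM in F112 mice, 84.0, 87.0, 77.0 and 81.3 RPKM in F08 mice and 81.8, 83.3, 79.9 and 81.0 RPKM in NTg mice. The F112 group reached the lowest value and overlapped both others. Slc6a9 over Slc6a5 was 1.16 ± 0.0841 (SD, n = 12), from 1.04 to 1.34, so Slc6a9 was above Slc6a5 in RPKM in every cord. The highest ratio was that of F112 mouse 6317.

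**Figure D1:**
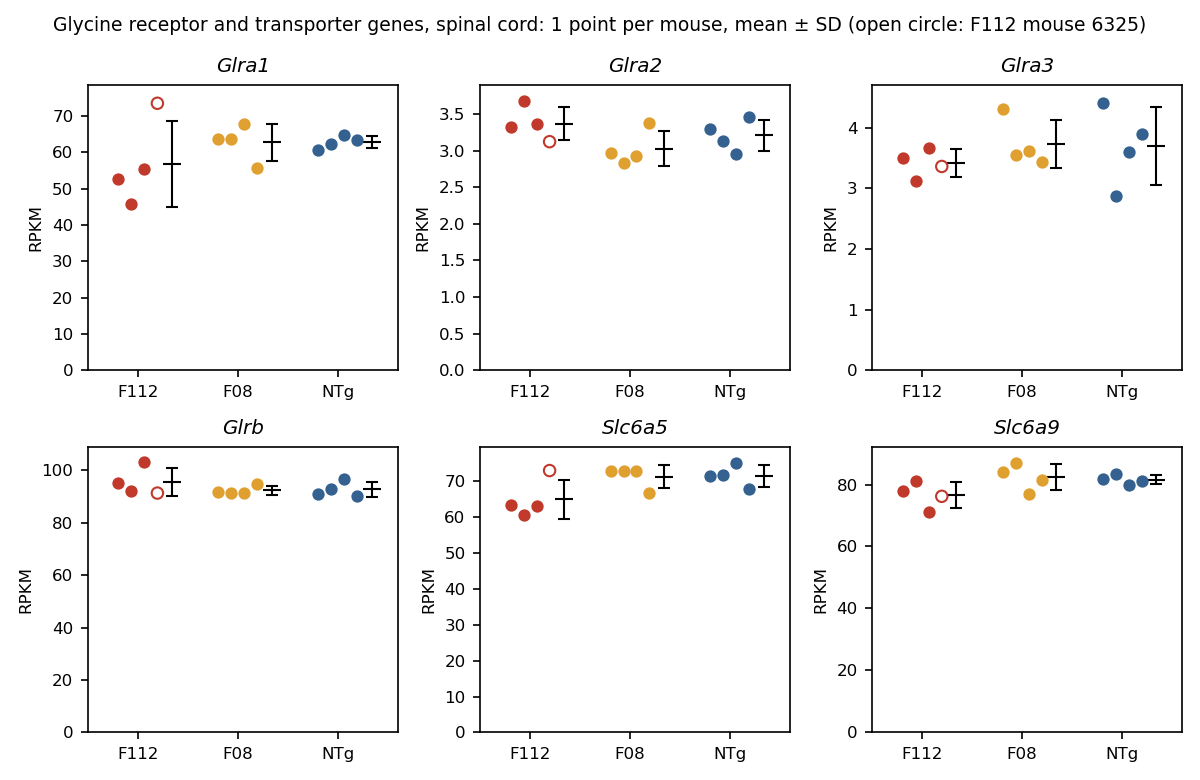
RPKM of the 6 genes in spinal cord (vertical axes, starting at 0) for F112, F08 and NTg mice, 1 point per mouse with the mean and SD of 4 mice beside it; the open circle is F112 mouse 6325. For Glra1 and Slc6a5 the 3 filled F112 points lie at 45.8 to 55.5 and 60.6 to 63.4 RPKM, below every other point.

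In cortex the order was different. Glrb remained the most abundant at a mean of 31.7 RPKM over 11 libraries, above 93.3% of genes, followed by Slc6a9 at 9.96 RPKM (above 76.9%). Glra2 averaged 2.25 RPKM, Glra3 0.984 RPKM and Glra1 0.453 RPKM, and Slc6a5 was at 0 in most libraries. The ranges of Glra2, Glra3 and Glra1 overlapped between neighbours in this order, while Glrb and Slc6a9 did not overlap with each other or with the rest.

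Glrb had 31.0, 32.1 and 31.4 RPKM in F112 cortex, 28.5, 32.5, 33.1 and 30.5 RPKM in F08 cortex and 27.8, 33.1, 32.3 and 36.3 RPKM in NTg cortex. Slc6a9 had 7.81, 9.97 and 10.4 RPKM in F112 cortex, 12.3, 9.49, 10.0 and 13.3 RPKM in F08 cortex and 6.19, 11.0, 9.08 and 10.0 RPKM in NTg cortex. The 2 highest Slc6a9 values were from F08 mice 6318 and 6321 and the lowest from NTg mouse 6322, and the groups overlapped for both genes.

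Glra2 had 1.38, 2.03 and 3.26 RPKM in F112 cortex, 1.47, 2.47, 1.59 and 2.91 RPKM in F08 cortex and 1.47, 3.48, 2.13 and 2.61 RPKM in NTg cortex. Glra3 had 0.603, 0.434 and 2.64 RPKM in F112 cortex, 0.483, 0.797, 0.599 and 1.30 RPKM in F08 cortex and 0.836, 1.41, 1.21 and 0.517 RPKM in NTg cortex. F112 mouse 6324 had the highest Glra3 value, and the F112 mean was 0.519 RPKM without it, against 1.22 RPKM with it. Glra1 had 0.185, 0.486 and 0.483 RPKM in F112 cortex, 0.594, 0.204, 0.368 and 1.19 RPKM in F08 cortex and 0.186, 0.893, 0.0784 and 0.316 RPKM in NTg cortex. For all 3 alpha genes the groups overlapped.

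Slc6a5 was listed at 0 in all 3 F112 cortex libraries, at 0.0297 RPKM in F08 mouse 6320 and 0 in the other 3 F08 libraries, and at 0.0379 RPKM in NTg mouse 6326, 0.0307 RPKM in NTg mouse 6327 and 0 in the other 2. Multiplied by their alignments, the 3 values above 0 agreed to within 1.003-fold, so they stand for the same number of reads. If that number is 1, then 3 reads, the limit that a count of 0 allows, equal 0.089 to 0.139 RPKM per library. This limit covers counting error only. At 1 read the values imply a gene length of 2292 bases, while annotated transcripts have 2467, 6966 and 7065 bases. With a longer length the same values would stand for more reads, and the limit would be lower. Genotype differences in cortical Slc6a5 below the limit could not be detected at this depth.

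**Figure D2:**
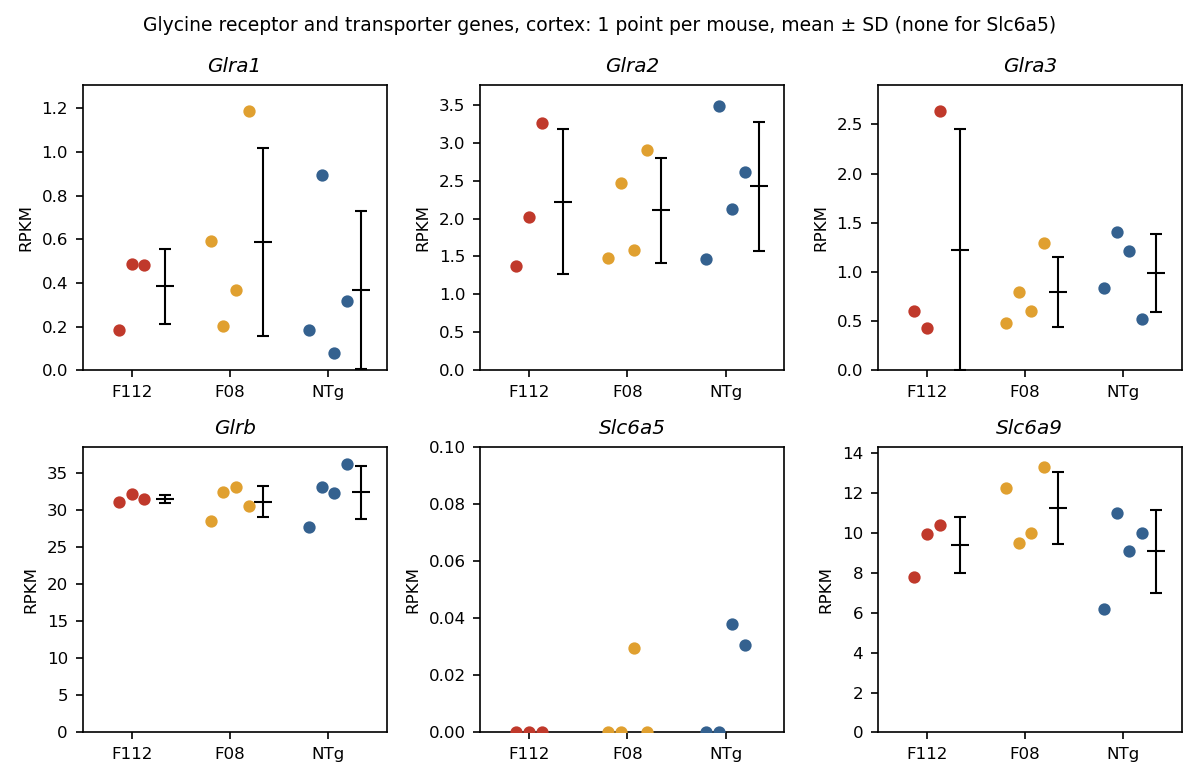
RPKM of the 6 genes in cortex (vertical axes, starting at 0) for 3 F112, 4 F08 and 4 NTg mice, 1 point per mouse with mean and SD beside it (bars are cut at 0, and none is drawn for Slc6a5). Glrb and Slc6a9 lie in narrow bands, while Glra1 runs from 0.0784 to 1.19 RPKM and Slc6a5 does not exceed 0.0379 RPKM.

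The tissue gap differed widely between the genes. The 2 tables were scaled separately and come from different sequencing platforms, so ratios between tissues are descriptions and were not tested. The spinal cord mean was 134 times the cortex mean for Glra1, 8.05 times for Slc6a9, 3.68 times for Glra3, 2.95 times for Glrb and 1.42 times for Glra2. For Glra1, Glrb, Slc6a5 and Slc6a9 the lowest spinal cord library lay far above the highest cortex library. The gap was narrow for Glra3, whose lowest cord value was 2.87 RPKM against a highest cortex value of 2.64 RPKM. For Glra2 the tissues overlapped, with a lowest cord value of 2.83 RPKM and a highest cortex value of 3.48 RPKM.

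The makeup of the alpha subunits differed accordingly. Of the summed RPKM of Glra1, Glra2 and Glra3, Glra1 made up 89.8% ± 1.42 in spinal cord (SD, n = 12) and 12.1% ± 6.77 in cortex (SD, n = 11). Glra2 made up 4.82% ± 0.909 in spinal cord and 62.3% ± 7.32 in cortex, and Glra3 5.39% ± 0.720 and 25.6% ± 8.38. Glra1 led in every cord library and Glra2 in every cortex library. Within the cord, Glra1's share was 89.1% ± 2.03 in F112, 90.2% ± 0.992 in F08 and 90.1% ± 1.13 in NTg mice (SD, n = 4 each), a difference smaller than the spread of the F112 group. The summed alpha subunits over Glrb came to 0.724 ± 0.0913 in spinal cord and 0.116 ± 0.0457 in cortex. In cord this ratio was 0.669 ± 0.140 in F112, 0.753 ± 0.0664 in F08 and 0.751 ± 0.0216 in NTg mice. Ratios of RPKM compare transcripts and say nothing of subunit numbers in receptors.

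**Figure D3:**
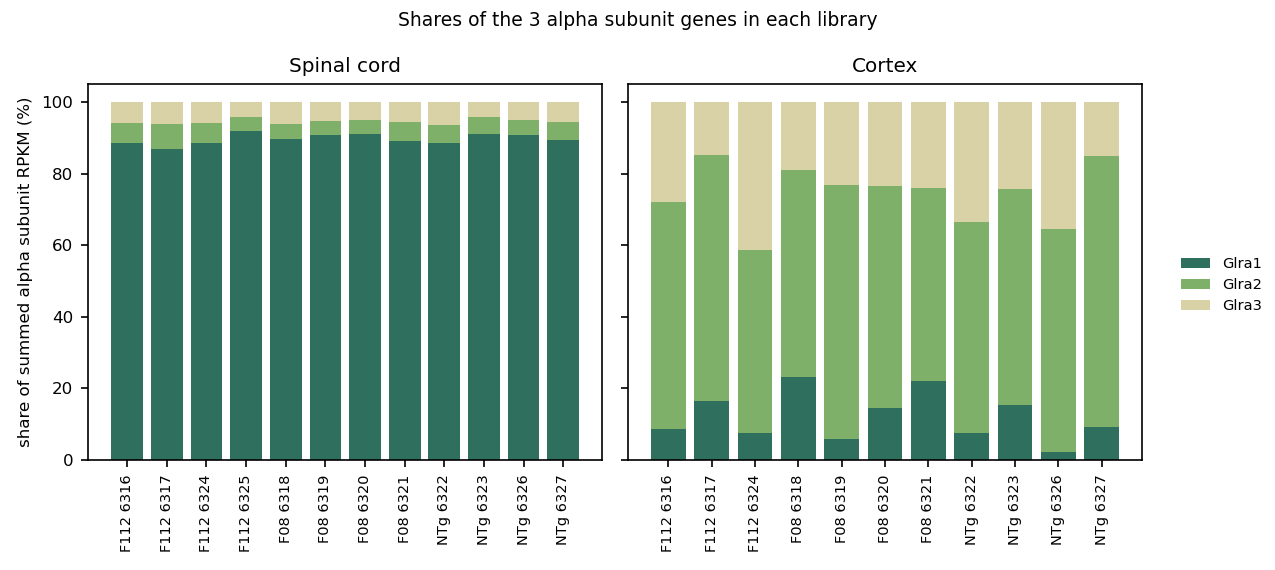
Share of Glra1, Glra2 and Glra3 in their summed RPKM (vertical axis, percent) for each library of spinal cord (left) and cortex (right), ordered F112, F08, NTg. Glra1 fills 87.1 to 91.9% of each spinal cord bar, and Glra2 51.1 to 75.9% of each cortex bar.

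Between genotypes in spinal cord, none of the 6 genes passed the test, which was limma on log2(RPKM + 0.5) with Benjamini-Hochberg adjustment over 13839 genes and an adjusted p under 0.05. The F112 mean lay below both other means for Slc6a5, Glra1, Slc6a9 and Glra3, and above both for Glra2 and Glrb. Slc6a5 averaged 65.0 ± 5.46 RPKM in F112 mice, 71.3 ± 3.13 RPKM in F08 mice and 71.5 ± 2.99 RPKM in NTg mice (SD, n = 4 each). Its log2 fold change was -0.14 (SE 0.0522) for F112 against NTg, with an unadjusted p of 0.0181 and an adjusted p of 0.625 in limma. It was also -0.14 (SE 0.0522) for F112 against F08, with an adjusted p of 0.431 in limma. Both comparisons use the same F112 libraries, so they are not independent. Exact two-sided permutation tests, which allow no p below 0.0286 here, gave 0.114 and 0.143 (0.214 for both after adjustment over the 3 comparisons of the gene).

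Glra1 averaged 56.8 ± 11.8 RPKM in F112 mice, 62.7 ± 5.14 RPKM in F08 mice and 62.8 ± 1.67 RPKM in NTg mice. Its log2 fold changes were -0.16 (SE 0.102) against NTg and -0.16 (SE 0.102) against F08, with adjusted p of 0.759 and 0.616 in limma. Slc6a9 averaged 76.6 ± 4.25 RPKM in F112 mice, 82.3 ± 4.22 RPKM in F08 mice and 81.5 ± 1.41 RPKM in NTg mice. Its log2 fold change was -0.090 (SE 0.0427) against NTg and -0.10 against F08, with adjusted p of 0.698 and 0.446 in limma. The unadjusted p of Slc6a9 in limma was 0.0530 against NTg and 0.0294 against F08. Exact two-sided permutation tests gave it 0.0857 and 0.114 (0.342 for both after adjustment over the 6 comparisons of the gene). For Glra1 they gave 0.343 in both comparisons (0.771 adjusted).

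The other receptor genes did not pass either. For F112 against NTg the log2 fold change was 0.061 for Glra2, -0.090 for Glra3 and 0.040 for Glrb, with adjusted p of 0.844, 0.850 and 0.8293 in limma. Against F08 it was 0.13 for Glra2, with a 95% interval from -0.000763 to 0.270, -0.11 for Glra3 and 0.046 for Glrb. F08 and NTg differed by -0.074 to 0.021 over the 6 genes, with adjusted p of 1.00 in limma. For Glra1 the 95% interval of F08 against NTg ran from -0.22 to 0.21, and for Slc6a5 from -0.12 to 0.11.

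These counts can be set beside those over all genes. For F112 against NTg 0.00723% of 13839 genes passed, for F08 against NTg 0.00723% and for F112 against F08 0.0217%. At an unadjusted p under 0.05, 1 of the 6 genes (Slc6a5) against a background of 7.11% was lower in F112 than in NTg, 2 of 6 (Slc6a5 and Slc6a9) against 10.4% were lower in F112 than in F08, and 0 of 6 against 4.1% differed between F08 and NTg. No gene of the 6 had groups that did not overlap, which 3.07%, 4.09% and 5.54% of genes had for F112 against NTg, F08 against NTg and F112 against F08.

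For Glra1 and Slc6a5, mouse 6325 lay farthest from the other F112 mice, and its library also stood apart in Rn45s; the part of that library's makeup in its values was not tested. Without it, Glra1 lay at 45.8 to 55.5 RPKM in the other 3 F112 mice, against 55.6 to 67.8 RPKM in all 8 F08 and NTg mice, and mouse 6325 at 73.5 RPKM exceeded them all. Slc6a5 lay at 60.6 to 63.4 RPKM in the 3 F112 mice, against 66.6 to 75.1 RPKM in the 8 others. Of all genes, 2.45% had their 3 remaining F112 values below all 8 others in this way, and 1.32% had them above. With mouse 6325 left out, the log2 fold change of Glra1 against NTg became -0.29 (adjusted p 0.239 in limma) and that of Slc6a5 -0.20 (adjusted p 0.231 in limma). Against F08 they became -0.29 (adjusted p 0.136 in limma) and -0.19 (adjusted p 0.109 in limma), so no test was passed. Without F112 mouse 6317 instead, Glra1 came to -0.068 against NTg and -0.063 against F08, and Slc6a5 to -0.11 and -0.10, so the size of the Glra1 difference depended on single F112 mice. Without F112 mouse 6324, that of Slc6a9 came to -0.055 against NTg and -0.068 against F08. Setting mouse 6325 apart in the ranges was done after its values were seen.

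**Figure D4:**
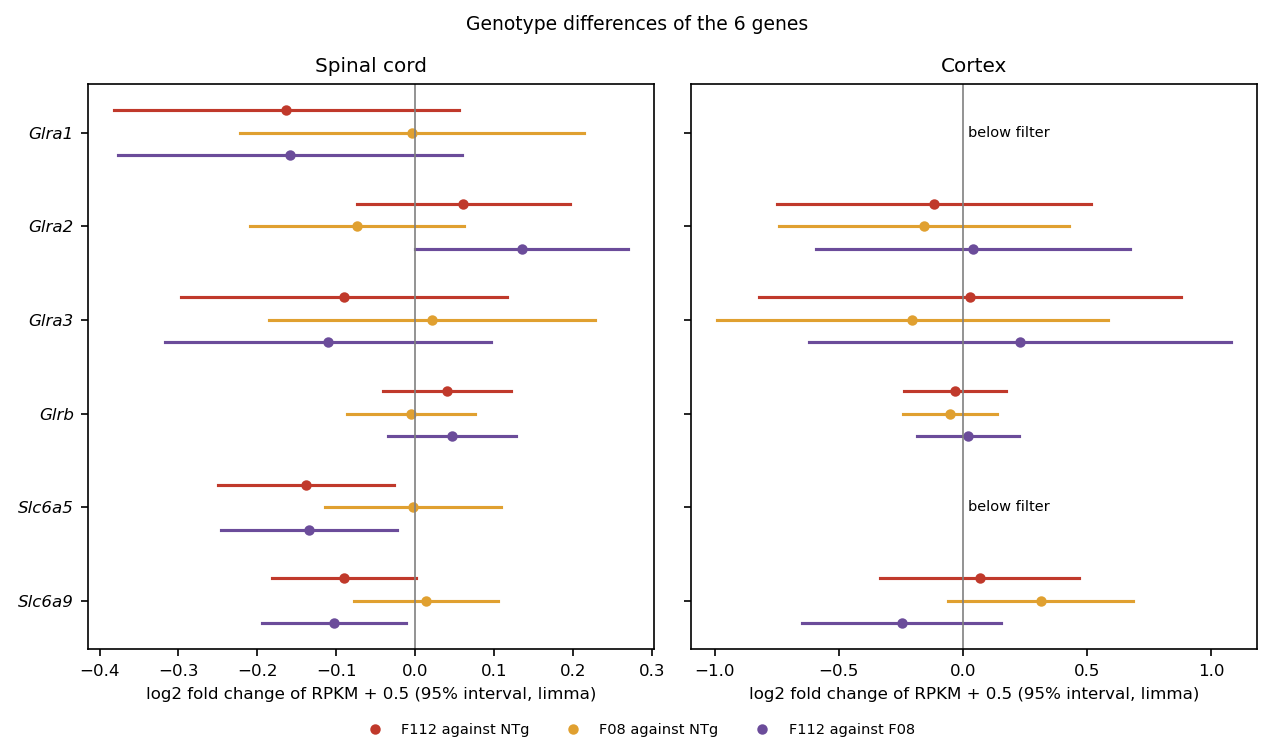
Log2 fold changes of RPKM + 0.5 (horizontal axes, limma, points with 95% intervals) of the 6 genes for F112 against NTg, F08 against NTg and F112 against F08 in spinal cord (left) and cortex (right, wider scale). In spinal cord the intervals of Slc6a5 for both F112 comparisons and of Slc6a9 for F112 against F08 lie below 0 before adjustment for the number of genes; every other interval includes 0.

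In spinal cord the markers of inhibitory interneurons summed to 143 to 162 RPKM in F112, 157 to 168 RPKM in F08 and 159 to 176 RPKM in NTg mice, with all 10 listed genes detected and none at 0. Pan-neuronal markers summed to 1958 to 2087, 1956 to 2057 and 1996 to 2110 RPKM. Of the 10 interneuron markers, 7 were lower and 3 higher in F112 than in NTg (median log2 fold change -0.093). Against F08, 8 were lower and 2 higher (median -0.033). At an unadjusted p under 0.05 in limma there were 3 and 4 of them, beside 7.11% and 10.4% of all genes, and none passed after adjustment. Over the 12 cords Slc6a9 followed the interneuron list by rank (rho = 0.867, permutation p = 0.0005, adjusted 0.033 over 66 relations of the 6 genes with alignments and 10 marker lists), while r = 0.778 missed the threshold (permutation p = 0.00461, adjusted 0.304); r was 0.822 without the 2 farthest libraries and 0.643 centred on genotype. The part of these markers in the lower F112 means of Slc6a5, Glra1 and Slc6a9 was not tested. In bulk tissue, fewer cells of a type and less RNA per cell cannot be told apart.

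In cortex, 4 of the 6 genes had a mean of at least 0.5 RPKM and were tested, and none passed. The share of all 13865 genes that passed was 0.00721% for F112 against NTg and 0.0% for the other 2 comparisons; 1.97%, 2.61% and 2.47% had an unadjusted p under 0.05 for F112 against NTg, F08 against NTg and F112 against F08, and none of the 4 did. For F112 against NTg the log2 fold change was -0.12 for Glra2, 0.027 for Glra3, -0.031 for Glrb and 0.067 for Slc6a9. The 95% intervals were wide for the scarce genes, from -0.75 to 0.52 for Glra2 and from -0.82 to 0.88 for Glra3, and narrow for Glrb, from -0.24 to 0.17.

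Of the 4 genes tested, Slc6a9 had the largest cortical difference, between F08 and NTg. Slc6a9 averaged 11.3 ± 1.81 RPKM in F08 cortex and 9.07 ± 2.08 RPKM in NTg cortex (SD, n = 4 each), a log2 fold change of 0.31 (SE 0.170) with an unadjusted p of 0.0913 and an adjusted p of 1.00 in limma. In F112 cortex it averaged 9.40 ± 1.39 RPKM (SD, n = 3). Glra1, below the limit for limma in cortex, averaged 0.385 ± 0.173, 0.589 ± 0.430 and 0.368 ± 0.363 RPKM in F112, F08 and NTg mice. Without mouse 6321 the F08 mean was 0.389 RPKM, and without mouse 6323 the NTg mean was 0.193 RPKM. Exact two-sided permutation tests of its log2 values gave p = 0.743 for F112 against NTg, 0.4 for F08 against NTg and 0.514 for F112 against F08, and 0.892, 0.771 and 0.771 after adjustment over its 6 comparisons. No gene of the 6 had groups that did not overlap, which 3.05%, 1.69% and 3.57% of genes had in these comparisons.

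For differences between tissues, the values printed here come from a fit that took all libraries as independent, without pairing of mice. Whether a genotype difference itself differed between spinal cord and cortex was tested for the 4 genes kept in both tissues, among 13078 genes. None of the 4 passed or had an unadjusted p under 0.05, with a background of 0.00765% passing and 3.58% under that unadjusted p for F112 against NTg, 0.00765% and 2.93% for F08 against NTg, and 0.0% and 4.0% for F112 against F08. The smallest p was that of Slc6a9 for F08 against NTg, where the spinal cord minus the cortex difference was -0.30 (SE 0.178) with an unadjusted p of 0.106 and an adjusted p of 0.999 in limma.

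Across the 12 spinal cord libraries, 3 of the genes varied together. Glra1 and Slc6a5 were high in the same mice, with Pearson's r = 0.89 (permutation p = 0.0001, 0.0015 adjusted over 15 pairs) and Spearman's rho = 0.916 (permutation p = 9e-05, adjusted 0.00135). Glra2 ran against Slc6a5, with r = -0.85 (permutation p = 0.0005, adjusted 0.00375) and rho = -0.825 (permutation p = 0.00145, adjusted 0.0109). Glra2 ran against Glra1 as well, with r = -0.73 (permutation p = 0.0058, adjusted 0.029) and rho = -0.755 (permutation p = 0.00644, adjusted 0.0322).

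The mice low in both adult glycinergic genes were F112 mice 6317, 6316 and 6324, followed by F08 mouse 6321. With values centred on the mean of their genotype, r was 0.887, -0.870 and -0.717 for the 3 pairs. Centring pools the genotypes, and Glra1 varied most in F112 mice (SD 11.8 RPKM, against 5.14 in F08 and 1.67 in NTg). Whether the relations held inside each genotype was not tested. Without the 2 libraries farthest from the median of the first gene (Glra1, Glra2 and Glra1) r was 0.753, -0.793 and -0.543. Without mouse 6325 r was 0.910, -0.854 and -0.794. The Glra1 and Glra2 relation missed the adjusted threshold under median-of-ratios scaling (r = -0.680) and without any 1 of 5 libraries, where r was as weak as -0.578. All members of a pair come from the same library, and RPKM values of a library share 1 scaling.

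How common such relations are can be read from the other genes. Of 12036 cord genes that averaged 1 RPKM or more, 11 (0.0914%) had an r with Slc6a5 at or above that of Glra1, and 7 (0.0582%) one at or below that of Glra2. With Glra1, 91 genes (0.756%) had an r at or below that of Glra2. None of the 33 relations of these 3 genes with alignments and the 10 marker lists in cord passed adjustment over the 66 relations computed; the lowest adjusted permutation p was 0.528 for r and 0.731 for rho. For Glra1, Glra2 and Slc6a5 in turn, r was -0.045, 0.29 and -0.32 with alignments, 0.104, -0.149 and 0.406 with the interneuron list, and -0.586, 0.391 and -0.371 with the pan-neuronal list. Centred on genotype, r with the pan-neuronal list was -0.721, 0.639 and -0.603. With the cortical glutamatergic list r was 0.534, -0.531 and 0.532, and the part of these markers in the 3 relations was not tested. The other 12 pairs in spinal cord and all 6 pairs in cortex missed an adjusted p of 0.05. In cortex Glra2 and Glra3 came closest, with r = 0.68 (permutation p = 0.0188, adjusted 0.113) and rho = 0.591 (permutation p = 0.0614, adjusted 0.213) over 11 libraries, and r = 0.430 without the 2 farthest libraries.

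**Figure D5:**
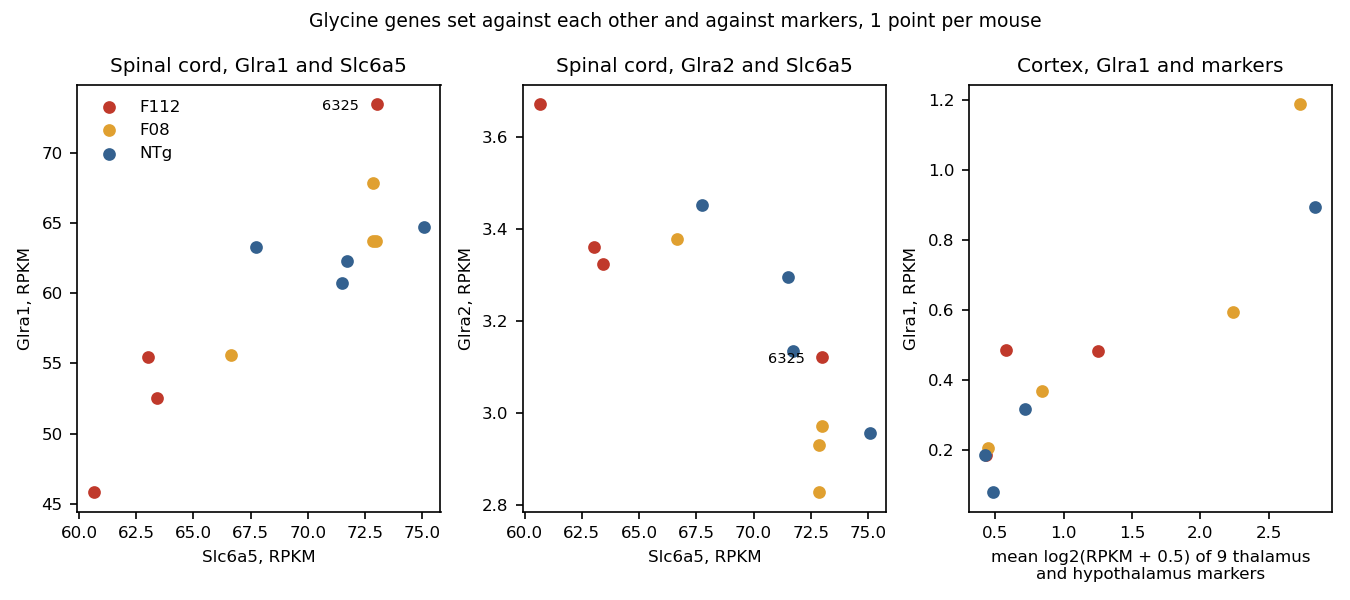
Each point is 1 mouse, colored by genotype: RPKM of Glra1 against Slc6a5 and of Glra2 against Slc6a5 in spinal cord, and RPKM of Glra1 in cortex against the mean log2(RPKM + 0.5) of 9 thalamus and hypothalamus markers; axes do not start at 0. Glra1 rises and Glra2 declines with Slc6a5 (r = 0.89 and -0.85), F112 mouse 6325 lies among the F08 and NTg points on the Slc6a5 axis, and the 3 cortex libraries highest in Glra1 are the 3 highest in these markers.

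The level of Glra1 in cortex ran with or against 3 of the 10 marker lists. This gene was below the limit for limma in cortex. Multiplied by alignments, its values ran from 1 to 18.21 times the smallest, that of NTg mouse 6326. They may therefore rest on few reads per library, and read counts were not analysed. Among 55 relations of the 5 genes above 0.3 RPKM with alignments and 10 marker lists, computed after the values were seen, Glra1 and the thalamus and hypothalamus list had r = 0.906 (permutation p = 6e-05, adjusted 0.0033) and rho = 0.873 (permutation p = 0.00083, adjusted 0.0228). Glra1 also ran with the spinal inhibitory interneuron list, r = 0.835 (permutation p = 0.00115, adjusted 0.0164) and rho = 0.818 (permutation p = 0.00321, adjusted 0.0589). That list was drawn up for the cord, and 5 of its 10 genes averaged under 0.5 RPKM in cortex. Glra1 ran against the cortical glutamatergic list, r = -0.837 (permutation p = 0.00119, adjusted 0.0164) and rho = -0.764 (permutation p = 0.00848, adjusted 0.081). For the thalamus and hypothalamus list, r was 0.752 without the 2 libraries farthest on the marker axis and 0.926 with values centred on genotype. For the other 2 lists these were 0.820 and 0.875, and -0.668 and -0.905. An r with the thalamus and hypothalamus list at least as high as that of Glra1 was seen for 0.101% of 11853 genes, the list's own genes included. For the spinal inhibitory interneuron list this share was 1.26%. The 9 genes of the list were all detected, and they summed to 14.4 to 41.7 RPKM in F112, 30.5 to 109 RPKM in F08 and 13.04 to 125 RPKM in NTg cortex.

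The 3 libraries with the most Glra1 were F08 6321 at 1.19 RPKM, NTg 6323 at 0.893 RPKM and F08 6318 at 0.594 RPKM. The same libraries had the most Pmch and Hcrt, peptide genes of the lateral hypothalamus: 23.4, 38.1 and 7.99 RPKM of Pmch and 14.2, 17.1 and 5.49 RPKM of Hcrt. In the other 8 libraries Pmch did not exceed 0.597 RPKM and Hcrt 0.522 RPKM, and Hcrt was at 0 in 4 of them. Pmch and Hcrt are only part of the 9-gene thalamus and hypothalamus list, and values per library of its other genes are not given here. Homeobox genes of hindbrain and cord stayed at or below 1.00 RPKM in sum in all cortex libraries. What these markers say of the tissue taken was not tested. Slc6a9 ranked the libraries nearly as the thalamus and hypothalamus list did (rho = 0.964, permutation p = 2e-05, adjusted 0.0011), with r = 0.746 (permutation p = 0.0076, adjusted 0.0836). An r with that list at least as high was seen for 1.87% of 11853 genes. Slc6a9 also followed the spinal inhibitory interneuron list, with r = 0.836 (permutation p = 0.00081, adjusted 0.0164) and rho = 0.782 (permutation p = 0.00642, adjusted 0.081). An r at least as high with the interneuron list was seen for 1.24% of genes. These shares were computed for r only, not for rho. Centred on genotype, r of Slc6a9 was 0.749 with the thalamus and hypothalamus list and 0.956 with the interneuron list. It was also 0.944 with the motor neuron list and 0.862 with the striatum list. Before centring these 2 lists had r = 0.675 and 0.610 and did not pass (adjusted permutation p 0.131 and 0.159). The part of dissected tissue in the cortical levels of Glra1 and Slc6a9 was not tested.

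The genes that work beside the receptor and the transporters were looked at as 3 lists, and none of their tested members passed in any comparison of either tissue. In spinal cord, F112 against NTg, the median log2 fold change was -0.022 over 11 of 12 postsynaptic genes, -0.043 over 9 presynaptic genes and -0.018 over 19 of 21 genes of glycine and serine metabolism and transport, beside -0.0099 over all genes. For F112 against F08 the medians were -0.012, -0.099 and -0.030, beside -0.016 over all genes. At an unadjusted p under 0.05 these lists held 1, 2 and 1 genes for F112 against NTg and 3, 4 and 1 genes for F112 against F08, beside 7.11% and 10.4% of all genes. In cortex the medians for F112 against NTg were 0.0012, -0.064 and -0.043 over 11, 9 and 16 genes, beside -0.020 over all genes.

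Gphn, which encodes gephyrin, averaged 22.5 ± 0.480 RPKM in F112 cord and 22.8 ± 1.01 RPKM in NTg cord, and 8.30 ± 1.03 and 8.45 ± 1.37 RPKM in F112 and NTg cortex. Slc12a5, which encodes the chloride exporter that makes glycine inhibitory, averaged 109 ± 6.59 RPKM in F112 cord, 117 ± 1.61 RPKM in F08 cord and 115 ± 5.34 RPKM in NTg cord. Adjusted p for F112 against NTg was 0.914 for Gphn and 0.728 for Slc12a5 in limma.

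On the presynaptic side, Slc32a1, whose product loads glycine and GABA into vesicles, averaged 62.6 ± 7.80 RPKM in F112 cord, 70.9 ± 4.33 RPKM in F08 cord and 72.4 ± 3.41 RPKM in NTg cord. Its log2 fold change against NTg was -0.22 (SE 0.0737) with an unadjusted p of 0.0105 and an adjusted p of 0.606 in limma. Gad1 and Gad2, the GABA-synthesizing enzymes, averaged 50.3 ± 2.12 and 19.9 ± 0.825 RPKM in F112 cord and 50.1 ± 2.19 and 20.5 ± 0.669 RPKM in NTg cord. Slc7a10, an astrocyte exchanger of glycine and D-serine, averaged 47.0 ± 3.50 RPKM in F112 cord and 48.9 ± 1.56 RPKM in NTg cord. Gldc, the decarboxylase of the glycine cleavage system, averaged 0.952 ± 0.0749 RPKM in F112 cord and 0.983 ± 0.0929 RPKM in NTg cord, and 6.58 ± 0.356 and 5.85 ± 0.610 RPKM in F112 and NTg cortex, so its mean was higher in cortex than in cord. Phgdh and Shmt2, enzymes of serine and glycine synthesis, averaged 40.7 ± 3.90 and 8.08 ± 0.606 RPKM in F112 cord and 43.1 ± 2.76 and 8.19 ± 0.428 RPKM in NTg cord.

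The genes most like each member were found by Pearson's r of log2(RPKM + 0.5) over the libraries of a tissue, as a description. In spinal cord (12 libraries, 12036 genes) Glra1 was most like Abl2 (r = 0.946), Scn8a (0.942) and Hmbox1 (0.939), and Slc6a5 was most like Caln1 (0.957), Scn8a (0.929) and Ank1 (0.927). Scn8a, which encodes a neuronal sodium channel, was thus near both. Glrb was most like Fgf12 (0.978), Ube2n (0.970) and Bzw1 (0.962), and Slc6a9 most like Gps1 (0.965), Alkbh6 (0.962) and Klhdc3 (0.954). Glra2 was most like Arl14ep (0.881), Mphosph6 (0.865) and Klhdc9 (0.864), and Glra3 most like Ikzf5 (0.866), Spata5 (0.841) and Polr3c (0.8293). In cortex (11 libraries, 11853 genes) the nearest genes were Arxes1 (0.943), Wdr70 (0.941) and Micu2 (0.936) for Glra2 and Atp8a1 (0.922), Usp22 (0.915) and Dcun1d4 (0.914) for Glra3. For Glrb they were Parp2 (0.916), Cfl1 (0.915) and Tnfsf12 (0.898), and for Slc6a9 Dstyk (0.972), Svil (0.955) and Rpl23a (0.944). No gene was among the nearest 3 of the same member in both tissues.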

How the data were processed

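Per the labels, brain libraries followed Ion Torrent and spinal cord libraries Illumina protocols. The authors deposited 1 table of RPKM values per tissue, 1 column per library, with alignments per library. The submitters' processing notes name TopHat2 2.0.8b, Partek, mm9 and mm10. The sources used here do not give the role of each, the rule for assigning reads or the use of strand. No read counts were analysed and no count model was used.

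Log2(RPKM + 0.5) was fitted with limma 3.58.1 (R 4.3.3, empirical Bayes with trend), each tissue apart with 3 genotypes in a fit, for genes averaging 0.5 RPKM or more. Tests were two-sided with Benjamini-Hochberg adjustment at 0.05. Fold changes are on the log2(RPKM + 0.5) scale, which understates those of scarce genes, and are the first named group minus the second. A joint fit tested differences between tissues. The labels give the same mouse numbers in both tissues, so mice are paired there, and a fit with mouse as a block was run too. Within a tissue, limma p-values set a difference against the spread between mice, with information on spread shared across genes. Those printed for the joint fit take libraries of the same mouse as independent. The fit was tested on simulated data. Correlations used 100000 resamples. There were 26 names per tissue that had become dates; these were left out of the joint fit.

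All 6 genes are named throughout. The 3 nearest genes by r are named per gene (mean at least 1 RPKM, without small RNA and predicted genes), and so are genes of the pathway lists (Gphn, Slc12a5, Slc32a1, Gad1, Gad2, Slc7a10, Gldc, Shmt2, Phgdh). Some genes that this rule takes are not reported here. Members and lists were chosen with earlier results of these data known. Alternatives were other scalings, pseudocounts, filters, covariates, subsets and leaving out each library. Relations with markers, the Adora2a class and the fits of the joint test without mouse 6325 were added after the data were seen.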

Additional observations from a re-analysis of the deposited data

Results flagged for a closer look

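In 30 groups of 4 mice (the 6 genes, each in 3 spinal cord groups and 2 cortex groups), 3 had 1 mouse set apart from the other 3 by a gap that filled most of the range of the group; chance sets about 1 in 20 groups apart in this way. For Slc6a5 in cortex the rate cannot be read this way, since the other 3 values are exactly 0, and 2 of the 3 remain without it. In the spinal cord of F08 mice, mouse 6321 was apart in 2 genes: Slc6a5 was at 66.6 RPKM against 72.9 to 73.0 RPKM in the other 3 (gap over range 0.982), and Glrb at 94.8 RPKM against 91.4 to 91.8 RPKM (0.882). Glra1 was also lowest of the F08 group in this mouse, at 55.6 RPKM. In cortex, F08 mouse 6320 was the only F08 library with Slc6a5 above 0, at 0.0297 RPKM. If this value stands for 1 read, it is under the limit that a count of 0 allows.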

How the results depend on the processing

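None of the 6 genes passed a test under any of 1026 alternatives of 42 results; the lowest adjusted p was 0.109 in limma (Slc6a5 in spinal cord, F112 against F08, without F112 mouse 6325). Levels stayed within the spread between mice under every alternative run. Scaling moved the median of all genes by at most 0.0218 on the log2 scale. Differences near 0 changed sign, and the cause was not tested. With alignments as a covariate these were Glra2 (0.060) and Glrb (0.016) in cortex and Glra2 in spinal cord (-0.017) for F112 against NTg, and Glra3 (-0.073), Glrb (0.025) and Slc6a5 (0.00177) in spinal cord for F08 against NTg. Quantile scaling gave 0.00199 for Glrb and 0.00457 for Slc6a5 in the same comparison, and a pseudocount of 0.1 gave -0.035 for Glra3 in cortex, F112 against NTg. Without the 3 Ttr-rich cortex libraries, Slc6a9 (-0.16) and Glra1 (-0.29) turned for F112 against NTg and Glra2 (-0.054) for F112 against F08, and the spinal cord minus cortex differences turned for Slc6a9, F112 against NTg (0.073), and Glrb, F112 against F08 (-0.00263). With the Adora2a class as a covariate Glra2 in cortex, F112 against F08, was -0.032.

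Leaving out 1 library at a time, the log2 differences that changed sign ranged as follows. In cortex, F112 against NTg, they were -0.38 to 0.12 for Glra2, -0.52 to 0.36 for Glra3, -0.10 to 0.025 for Glrb, -0.096 to 0.19 for Slc6a9 and -0.077 to 0.35 for Glra1. In cortex, F08 against NTg, they were -0.33 to 0.0074 for Glra2 and -0.12 to 0.0049 for Glrb, and for F112 against F08 -0.22 to 0.28 for Glra2, -0.31 to 0.56 for Glra3 and -0.021 to 0.049 for Glrb. In spinal cord, F08 against NTg, they were -0.043 to 0.052 for Glra1, -0.080 to 0.10 for Glra3, -0.019 to 0.014 for Glrb, -0.029 to 0.029 for Slc6a5 and -0.014 to 0.044 for Slc6a9. For spinal cord minus cortex they were -0.062 to 0.44 (Glra2), -0.45 to 0.43 (Glra3) and -0.28 to 0.0062 (Slc6a9) for F112 against NTg, -0.081 to 0.26 (Glra2) and -0.011 to 0.12 (Glrb) for F08 against NTg, and -0.14 to 0.36 (Glra2), -0.67 to 0.20 (Glra3) and -0.011 to 0.067 (Glrb) for F112 against F08.

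Over all genes, counts passing were few and unstable, and none was one of the 6. In cortex F112 against NTg gave 1, 0 with the 7 Adora2a-rich libraries and 1 to 2 leaving out 1 library; F08 against NTg gave 0, 1 with median-of-ratios scaling and 3 without the Ttr-rich libraries; F112 against F08 gave 0, and 0 to 1 leaving out 1 library. In spinal cord F112 against NTg gave 1, 0 with a pseudocount of 1, no filter, a filter at 5 RPKM, only the 2 groups or alignments as a covariate, and 0 to 2 leaving out 1 library. F08 against NTg gave 1, 2 with robust empirical Bayes or Xist as a covariate and 0 with alignments. F112 against F08 gave 3, 1 with no filter, a filter at 5 RPKM or only the 2 groups, 6 with Xist, and 1 to 4 leaving out 1 library. For spinal cord minus cortex, F112 against NTg gave 1, 2 with no filter, 69 without the Ttr-rich libraries and 1 to 2 leaving out 1 library. F08 against NTg gave 1, 0 with mice paired (the replicate block), 134 without the Ttr-rich libraries and 1 to 3 leaving out 1 library, and F112 against F08 gave 0, and 3 without the Ttr-rich libraries. The replicate block changed no other call.

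Among relations, those of Glra1 with Slc6a5 and of Glra2 with Slc6a5 in spinal cord passed under every alternative that gave a p. Glra1 with Glra2 missed the threshold with median-of-ratios scaling (r = -0.680) and ranged from -0.818 to -0.578 leaving out 1 library. Relations that had not passed and changed sign in spinal cord were, centred on genotype, Glra1 with Slc6a9 (-0.338), Glra2 with Glra3 (0.0271), Glrb (-0.0683) and Slc6a9 (0.101), Glra3 with Glrb (0.0139) and Slc6a9 (-0.222), and Slc6a5 with Slc6a9 (-0.0977). Median-of-ratios scaling turned Glra3 with Slc6a9 (-0.0378), and leaving out the 2 farthest libraries turned Glra1 with Glra3 (-0.0983) and Glra2 with Glra3 (0.0335). Leaving out 1 library they spanned -0.0194 to 0.375 (Glra1 with Glra3), -0.157 to 0.223 (Glra1 with Slc6a9), -0.269 to 0.0631 (Glra2 with Glra3), -0.0162 to 0.274 (Glra2 with Glrb) and -0.111 to 0.228 (Glra3 with Slc6a9). In cortex Glrb with Slc6a9 was -0.134 with median-of-ratios scaling, -0.432 without the 2 farthest and -0.345 to 0.492 leaving out 1 library; Glra3 with Glrb spanned -0.221 to 0.175. Glra2 with Glra3 spanned 0.608 to 0.781 and passed only without NTg mouse 6327 (permutation p adjusted 0.0409). In cortex the SE for F112 against NTg was 0.290 for Glra2 and 0.390 for Glra3, against 0.0633 and 0.0966 in spinal cord; what sets this was not tested, and read counts were not analysed here.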

Other observations

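Glra4, the remaining alpha subunit gene of the mouse, was scarce in both tissues, below the 0.5 RPKM needed for a test. In spinal cord it averaged 0.269 ± 0.0338 RPKM in F112 mice, 0.379 ± 0.0629 RPKM in F08 mice and 0.269 ± 0.0278 RPKM in NTg mice (SD, n = 4 each). The lowest F08 value, 0.316 RPKM, lay above the highest F112 value, 0.296 RPKM, and the highest NTg value, 0.294 RPKM. Among genes that were tested, 4.09% had groups that did not overlap for F08 against NTg and 5.54% for F112 against F08. Glra4 was singled out after its values were seen and was not tested. In cortex it ranged from 0 to 0.272 RPKM over 11 libraries.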
